A study of Zea mays with 6 samples.

Results

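The SAUR genes of maize were examined in root tips of plants under negative pressure irrigation (NPI), in which the soil draws water by its own suction from a source kept under negative pressure, and of plants under a comparison irrigation named DI. They were taken as every gene whose name or description in the deposited table holds a word beginning with SAUR or the phrase small auxin up, which gave 73 of 45953 genes. Each group had 3 libraries of poly(A) RNA from root tips, labelled SW for NPI and DW for DI. DI reads deficit irrigation among the sample characteristics but drip irrigation in the descriptions, and the description of DI-2 carries the repeat number of DI-3, so the abbreviation and the numbers of the sample titles are kept. No genotype, plant age, transgene or further treatment was given for either group. Whether each library had its own plants is not stated, so p-values cover only variation among these 6 libraries, part or all of which may be technical.

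SAUR stands for small auxin up RNA. The genes encode short proteins, and their transcripts accumulate within minutes of an auxin stimulus and decay quickly. In Arabidopsis, several SAUR proteins bind and inhibit clade D protein phosphatases 2C, which keeps proton pumps of the plasma membrane phosphorylated and active, so that the cell wall is acidified and expansins can loosen it. Other SAUR proteins of Arabidopsis respond to abscisic acid, brassinosteroid or light, and some restrain growth. The numbers in the descriptions follow the table, and several maize genes share the same number, so the gene identifier is given throughout.

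Total estimated counts were 57792439 to 71957443 per library. Pearson correlations of log2(FPKM + 1) across tested genes, which are not independent replicates, were 0.936 to 0.957 among the DI libraries and 0.814 to 0.901 among the NPI libraries, where FPKM is the deposited level scaled for transcript length and sequencing depth. NPI-2 stood apart: it correlated at 0.854 to 0.882 with the DI libraries and at 0.838 and 0.814 with NPI-1 and NPI-3. The counts of called SAUR genes are therefore also given without NPI-2. Root cap genes, a check of the tissue label, were present in all 6 libraries, and 3 of 4 had a mean of at least 1 FPKM. Their summed level was 28, 140.7 and 39.7 FPKM in NPI-1 to NPI-3 and 231.2, 156.5 and 110.5 FPKM in DI-1 to DI-3. Stem cell niche and patterning genes summed to 155.5, 155.0 and 87.6 FPKM in NPI and 74.9, 105.9 and 92.0 FPKM in DI. Root hair genes summed to 147.2, 96.7 and 119.1 FPKM in NPI and 132.6, 138.4 and 151.5 FPKM in DI. Of 17 green tissue genes, 12 also had a mean of at least 1 FPKM. Their sums were 77.8, 81.0 and 55.2 FPKM in NPI and 45.6, 86.9 and 35.1 FPKM in DI. The part of these differences in the results below was not tested. In whole root tips, fewer cells of a type and less RNA per cell cannot be told apart.

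Many SAUR genes had few or no counts in these root tips, as did many genes of the whole table. Of the 73 genes, 22 had no count in any library, which allows up to 3 counts of each library's total, or 0.0417 to 0.0519 CPM (counts scaled to library size), for counting error only. Another 21 had counts but a mean below 1 FPKM, and 30 reached a mean of 1 FPKM over the 6 libraries and were tested. In all, 51 of 73 SAUR genes had a count in some library, beside 33051 of 45953 genes in the whole table. Of those 45953 genes, 21902 were tested. Among the 30, 7 had a mean of at least 10 FPKM, 4 lay between 5 and 10 FPKM, and 19 lay below 5 FPKM. All 73 carry the annotation response to auxin, and 26 are assigned to the SAUR entry of the plant hormone pathway. Most were compact genes: 62 span under 1000 bp, with a median of 438 bp, and 9 of the 11 longer ones had no count. Among those 9, Zm00001d027753 and Zm00001d033729 are named as bHLH transcription factors in the same table, so their membership rests on the description alone.

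Summed over the family, SAUR transcripts were more abundant under NPI, with no overlap between the groups. The summed level of the 73 genes was 357.65, 249.08 and 392.88 FPKM in NPI-1 to NPI-3 and 162.01, 129.82 and 213.68 FPKM in DI-1 to DI-3. The means were 333 ± 75 FPKM in NPI and 168.5 ± 42.3 FPKM in DI (SD, n = 3 each), a ratio of 1.98. Without SAUR12 (Zm00001d018200) the ratio was 1.76, and without the 6 genes of highest mean level it was 1.49, with NPI at 103.47 to 125.39 FPKM and DI at 61.63 to 87.08 FPKM. No test was run on these sums, because the genes were grouped with earlier results known. The sums were not corrected for the trend on transcript length given below. In the shortest 10% of all tested genes the median log2 difference was 0.48.

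No SAUR gene passed the threshold of an adjusted p of 0.05 over all genes in edgeR's quasi-likelihood test with Benjamini-Hochberg adjustment, where 0.0137% of the 21902 tested genes passed. At an unadjusted p under 0.05, 8 of the 30 tested SAUR genes were higher in NPI, or 26.7%, and none was lower, where 12.3% of all tested genes were higher and 8.52% lower. The log2 difference, NPI minus DI, was above 0 in 21 of 30 SAUR genes, or 70.0%, beside 54.0% of all tested genes. Its median was 0.59 in SAUR genes and 0.07 in all tested genes. In 8 of 30 SAUR genes every NPI library lay above every DI library, beside 13.0% of all tested genes, and in none did every NPI library lie below, beside 13.7%. Relative to the DI mean, the median SAUR gene lay 0.60, 0.46 and 0.89 higher on the log2 scale in NPI-1, NPI-2 and NPI-3.

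These counts depend on the libraries and on the tool. A mean over both groups decided which genes were tested. In NPI alone, 5 SAUR genes, 4 of them tested, had a mean of at least 1 FPKM. In DI alone 3 did, all tested: Zm00001d004384, Zm00001d021459 and Zm00001d049659. The counts therefore describe the tested genes and not the whole family. Of the 8 genes higher at an unadjusted p under 0.05, 3 (Zm00001d036463, Zm00001d025947 and Zm00001d002826) reached the filter only through NPI, where they are high, and 5 had a mean of at least 1 FPKM in both groups. With the trend on transcript length removed, 17 of 30 SAUR genes had a log2 difference above 0, beside 53.1% of all tested genes. Without NPI-2, 4 SAUR genes rose and 1 fell past an adjusted p of 0.05 in edgeR, beside 6.65% and 5.19% of all tested genes. The 1 that fell was Zm00001d021459, which reached the filter only through DI. At an unadjusted p under 0.05 without NPI-2, 9 were higher and 1 lower, beside 18.6% and 16.7% of all tested genes. DESeq2 called 6 SAUR genes higher and none lower, beside 6.84% of all tested genes called higher. On log2(FPKM + 1), limma called 1 SAUR gene, SAUR12, beside 0.630% of all tested genes.

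**Figure D1:**
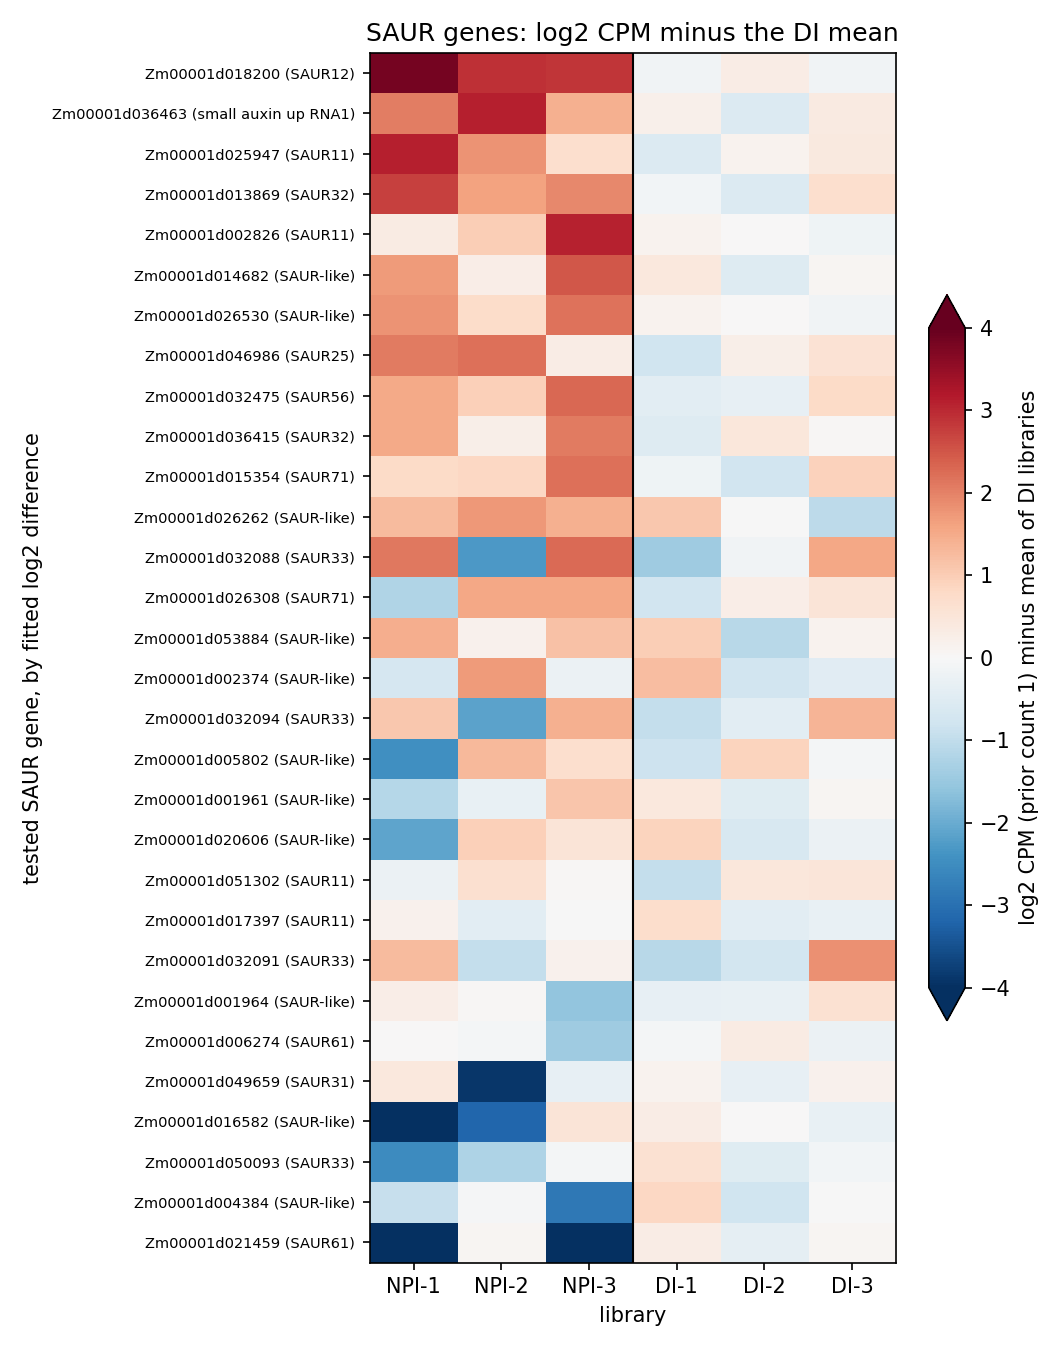
Log2 CPM of the 30 tested SAUR genes (rows, ordered by fitted log2 difference) in each library (columns), minus the mean of the 3 DI libraries; colours end at 4 and -4. Zm00001d018200 heads the rows, and in the SAUR33 genes of chromosome 1 NPI-2 is below the DI mean while DI-3 is above it.

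SAUR12, Zm00001d018200, showed the clearest difference of the family. It lies on chromosome 5 (216447005 to 216447600, plus strand, in the coordinates of the deposited table) and had 65.07, 38.82 and 30.45 FPKM in NPI-1 to NPI-3 and 4.25, 6.04 and 4.27 FPKM in DI-1 to DI-3. The lowest NPI library was thus well above the highest DI library, and the spread among the DI libraries was small. Means were 44.8 ± 18.1 FPKM and 4.85 ± 1.03 FPKM (SD, n = 3 each), a ratio of 9.23. The log2 difference was 3.27 (SE 0.379, adjusted p = 0.0613 in edgeR), higher in 3 of 3 NPI libraries. Since it is named in the choice of the genes, its values are a description. Over the alternatives in normalization, filter, tool and libraries the log2 difference ran from 2.88 to 3.44, and its adjusted p from 1.21e-12 in DESeq2 to 0.3 in edgeR without DI-2. The other gene described as SAUR12, Zm00001d052148 on chromosome 4, was barely detected, with 4, 10 and 12 counts in the NPI libraries and 5, 0 and 0 in the DI libraries.

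Of the 3 genes described as SAUR32, whose Arabidopsis namesake acts in the apical hook of seedlings, 2 were tested and 1 was higher in NPI at an unadjusted p under 0.05 in edgeR. Zm00001d013869 on chromosome 5 (23456902 to 23457294) had 53.87, 28.03 and 27.68 FPKM in NPI and 7.71, 6.04 and 13.29 FPKM in DI. The groups did not overlap, and NPI-1 was highest, as it was for SAUR12. The log2 difference was 2.08 (SE 0.471, adjusted p = 0.101 in edgeR), and the gene passed without NPI-2 (adjusted p = 0.0381). Zm00001d036415 on chromosome 6 had 5.59, 2.57 and 7.44 FPKM in NPI and 1.39, 2.86 and 2.06 FPKM in DI, with NPI-2 inside the range of DI (log2 difference 1.42, adjusted p = 0.256 in edgeR). The remaining SAUR32 gene, Zm00001d014774, was the highest of the untested genes at a mean of 0.908 FPKM, with 18, 44 and 76 counts in NPI and 4, 15 and 18 in DI. It lay with Zm00001d021454 (SAUR55, mean 0.777 FPKM) just under the filter, and Zm00001d049659 (SAUR31, 1.04 FPKM) and Zm00001d004384 (1.15 FPKM) lay just above it.

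SAUR56, Zm00001d032475, was the most abundant SAUR gene of these root tips. On chromosome 1 (227990837 to 227991226), it had 64.24, 49.58 and 100.55 FPKM in NPI and 17.3, 19.54 and 39.71 FPKM in DI. Every NPI library was above every DI library, but NPI-2 exceeded DI-3 only narrowly. Means were 71.5 ± 26.2 FPKM and 25.5 ± 12.3 FPKM (SD, n = 3 each), with a log2 difference of 1.58 (SE 0.476, adjusted p = 0.147 in edgeR).

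A pair of abundant genes described only as SAUR-like followed. Zm00001d026530 on chromosome 10 had 22.55, 12.19 and 26.83 FPKM in NPI and 7.45, 7.17 and 6.03 FPKM in DI. Its groups were separate and its DI libraries close together (log2 difference 1.68, SE 0.441, adjusted p = 0.121 in edgeR). Zm00001d014682 on chromosome 5 had 36.6, 15.28 and 56.84 FPKM in NPI and 15.69, 8.54 and 12.32 FPKM in DI. Here NPI-2 lay within the range of DI (log2 difference 1.69, SE 0.575, adjusted p = 0.174 in edgeR). Both rose past the threshold without NPI-2, at adjusted p = 0.0271 and 0.0339 in edgeR.

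**Figure D2:**
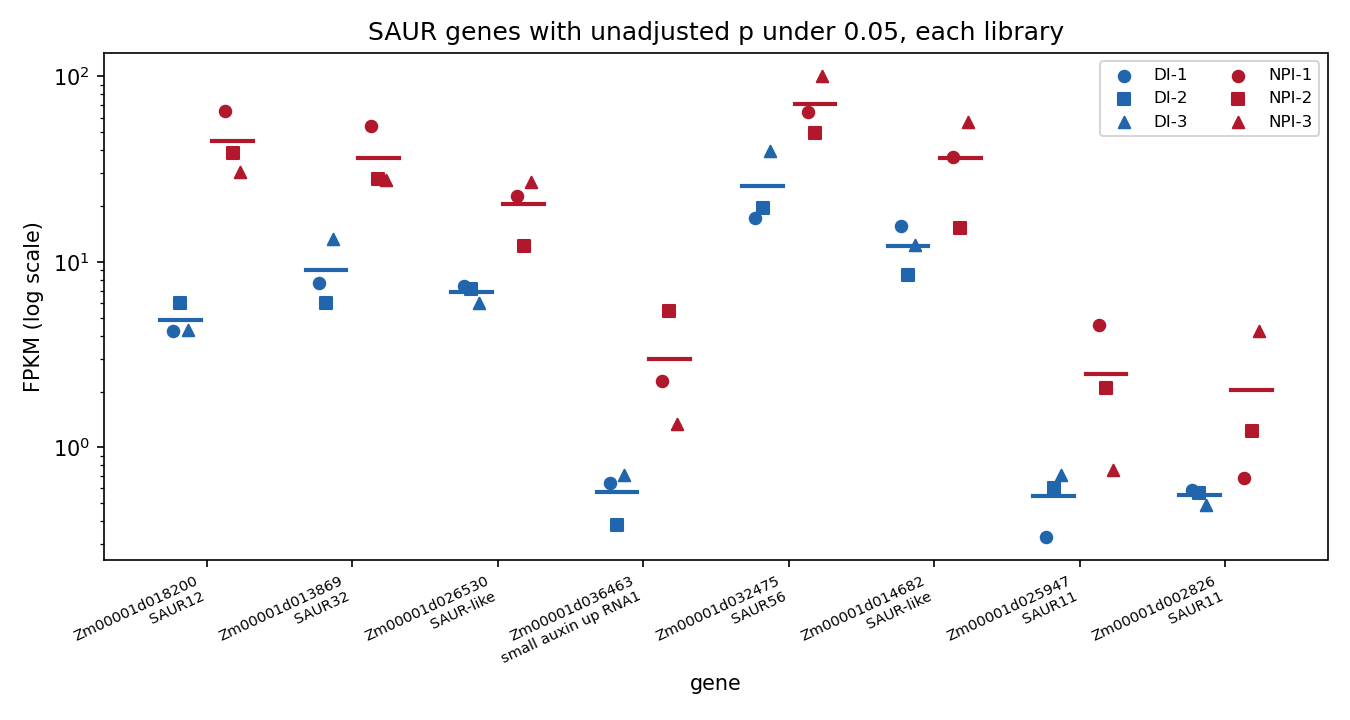
FPKM on a log axis for the 8 SAUR genes with an unadjusted edgeR p under 0.05; each point is a library, shaped by its number and coloured by group, and bars are group means. Every NPI point of Zm00001d018200 (30.45 FPKM or more) lies above its DI points (6.04 FPKM or less), whereas Zm00001d014682 overlaps.

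Weakly expressed SAUR genes made up the rest of the 8. The gene named small auxin up RNA1, Zm00001d036463 on chromosome 6, had 2.27, 5.43 and 1.33 FPKM in NPI and 0.64, 0.38 and 0.71 FPKM in DI (log2 difference 2.37, SE 0.694, adjusted p = 0.142 in edgeR). Unlike the genes above it was highest in NPI-2. All 4 genes described as SAUR11 were tested, and they parted. Zm00001d025947 had 4.58, 2.09 and 0.75 FPKM in NPI and 0.33, 0.6 and 0.71 FPKM in DI, and Zm00001d002826 had 0.68, 1.23 and 4.24 FPKM in NPI and 0.59, 0.57 and 0.49 FPKM in DI. In each, a single NPI library carried most of the difference, NPI-1 in the former and NPI-3 in the latter, while their log2 differences were 2.17 and 2.00 (adjusted p = 0.191 and 0.240 in edgeR). The more abundant SAUR11 genes lay near 0: Zm00001d017397 had 7.98 ± 1.27 FPKM in NPI and 9.42 ± 4.3 FPKM in DI, and Zm00001d051302 had 4.62 ± 1.97 FPKM and 4.53 ± 2.12 FPKM (SD, n = 3 each), with adjusted p = 0.855 and 0.957 in edgeR. SAUR25 (Zm00001d046986) completed the 10 genes of smallest p on the higher side. It had 2.31, 2.83 and 0.58 FPKM in NPI and 0.26, 0.66 and 0.81 FPKM in DI. NPI-3 lay inside the range of DI (log2 difference 1.67, adjusted p = 0.269 in edgeR). This gene also reached the filter only through NPI.

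On the lower side no tested SAUR gene had an unadjusted p under 0.05 in edgeR, and DESeq2 called none lower. The abundant member there was the SAUR33 gene of chromosome 4, Zm00001d050093, with 3.73, 10.41 and 18.78 FPKM in NPI and 34.36, 16.76 and 20.61 FPKM in DI. NPI-3 overlapped the DI libraries, and the log2 difference was -1.02 (SE 0.639, adjusted p = 0.398 in edgeR). Zm00001d021459, described as SAUR61 on chromosome 7, divided the NPI group: it had 2, 64 and 0 counts in NPI-1 to NPI-3 and 58, 42 and 63 counts in DI-1 to DI-3. NPI-2 thus matched DI, while NPI-1 and NPI-3 were close to the counting floor. Its log2 difference was -1.45 (adjusted p = 0.596 in edgeR) with all libraries. Without NPI-2 it fell past the threshold at adjusted p = 0.0386 in edgeR. The gene reached the filter only through DI, where it is high. Zm00001d016582 divided the group another way, with 0.03, 0.27 and 3.1 FPKM in NPI and 3.05, 2.66 and 2 FPKM in DI (log2 difference -0.97, adjusted p = 0.688 in edgeR), so that NPI-3 was at the level of DI. The remaining genes of smallest p on this side were Zm00001d004384, Zm00001d006274 and Zm00001d001964. Their log2 differences were -1.05, -0.38 and -0.29 (adjusted p = 0.532, 0.650 and 0.830 in edgeR), and their groups overlapped. Of these, Zm00001d004384 reached the filter only through DI, where it is high.

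SAUR genes of maize often lie side by side, and 23 of the 73 fell into 6 runs in which each gene starts within 100 kb of the next. On chromosome 1, 3 SAUR33 genes lie on the minus strand within 108 kb (212207299 to 212315259). Zm00001d032088 had 6.12, 0.28 and 6.29 FPKM in NPI and 0.5, 1.35 and 4.36 FPKM in DI. Zm00001d032091 had 11.44, 2.73 and 4.84 FPKM in NPI and 2.25, 3.12 and 17.55 FPKM in DI, and Zm00001d032094 had 29.21, 3.49 and 33.19 FPKM in NPI and 7.34, 11.27 and 36.4 FPKM in DI. In all 3, NPI-1, NPI-3 and DI-3 were the higher libraries, and NPI-2, DI-1 and DI-2 the lower ones. The groups overlapped, and the log2 differences were 1.15, -0.20 and 0.39 (adjusted p = 0.613, 0.923 and 0.844 in edgeR). Whether reads of these neighbouring genes were split between them in the counting was not tested.

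**Figure D3:**
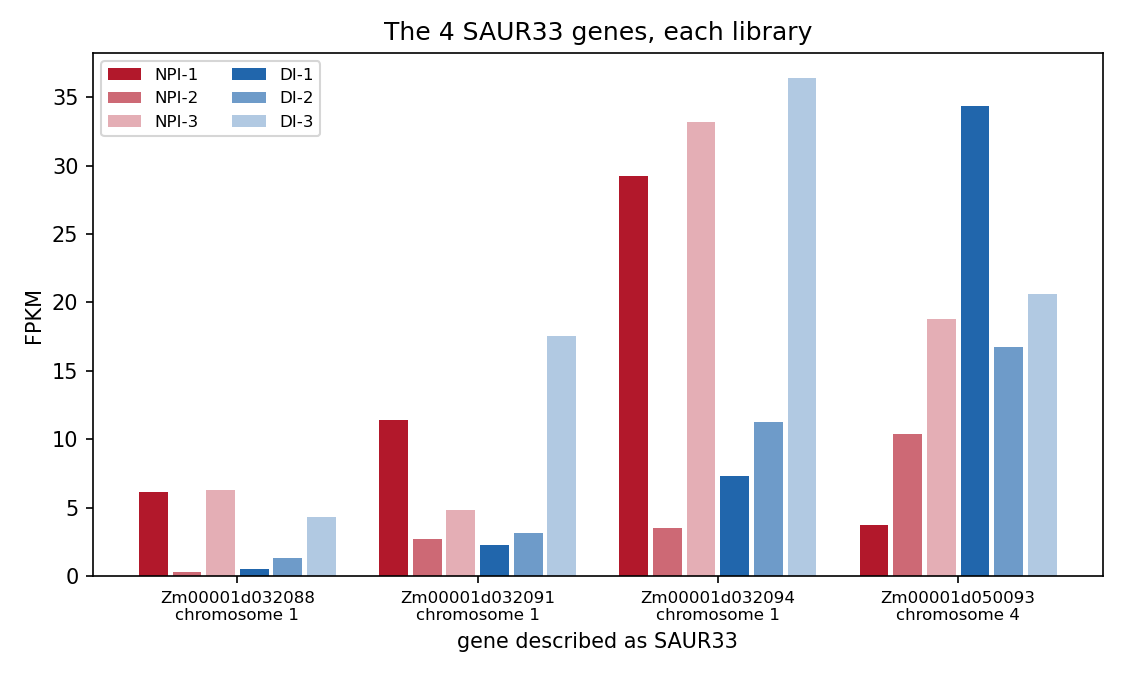
FPKM of the 4 genes described as SAUR33 in each library, with NPI in red and DI in blue; bars start at 0. The 3 neighbours on chromosome 1 are low in NPI-2, DI-1 and DI-2, while Zm00001d050093 on chromosome 4 is highest in DI-1 at 34.36 FPKM.

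The longest run was nearly silent. It holds 8 genes within 159 kb of chromosome 2 (203395420 to 203554453), mostly described as SAUR61, of which 4 had no count and 1, Zm00001d006274, was tested. That gene spans 7338 bp and encloses Zm00001d006275 and Zm00001d006276 on the other strand, so it stands outside the compact form of the family. It had 1.4, 1.49 and 0.47 FPKM in NPI and 1.35, 1.89 and 1.22 FPKM in DI. Of the 10 SAUR61 genes of the table, 2 were tested and neither had a positive log2 difference. The run on chromosome 7 (152609402 to 152720386) had 5 genes, of which Zm00001d021459 was tested, and the pair of SAUR71 genes on chromosome 8 had no count. In the run at the start of chromosome 2 (3566924 to 3600683), Zm00001d001961 and Zm00001d001964 had 3.61 ± 2.51 FPKM and 3.08 ± 1.78 FPKM in NPI and 3.53 ± 0.99 FPKM and 3.82 ± 1.45 FPKM in DI (SD, n = 3 each). Zm00001d005802, in a pair on the same chromosome, had 0.2, 3.71 and 1.92 FPKM in NPI and 0.76, 2.71 and 1.29 FPKM in DI. None of these differed beyond the spread of its libraries.

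The remaining tested genes had p above 0.05 and are named after their values were seen. Zm00001d026262, a SAUR-like gene, had 6.83, 10.6 and 6.88 FPKM in NPI and 6.1, 3.02 and 1.36 FPKM in DI, so its groups were separate by a small margin (adjusted p = 0.282 in edgeR). The SAUR71 genes Zm00001d015354 and Zm00001d026308 had 9.63 ± 4.98 FPKM and 6.07 ± 4.32 FPKM in NPI and 4.31 ± 2.59 FPKM and 3.21 ± 1.34 FPKM in DI (SD, n = 3 each; adjusted p = 0.317 and 0.517 in edgeR). Zm00001d053884, Zm00001d002374 and Zm00001d020606 had log2 differences of 0.80, 0.39 and 0.12 (adjusted p = 0.531, 0.836 and 0.951 in edgeR). Among the untested genes with counts, Zm00001d003018 had no count in any NPI library and 15, 6 and 8 counts in DI, and the SAUR71 gene Zm00001d031146 had 0, 11 and 17 counts in NPI and none in DI.

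Values of SAUR genes were widely spread within each group. The ratio of the highest to the lowest NPI library had a median of 4.25 in tested SAUR genes and 2.21 in all tested genes, and in DI the medians were 2.18 and 1.46. The difference between these medians was not tested, and the genes compared were not matched on level. A mean below 5 FPKM was found in 19 of the 30 tested SAUR genes, where counting error widens such ratios. Zm00001d016582, with a ratio of 103.33 in NPI, had 2 counts in NPI-1.

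Transcript length moved with the group in these data. Relative length, taken as deposited count over FPKM, had a median of 0.241 in tested SAUR genes, where the median tested gene is 1, and 27 of the 30 lay in the shortest 10% of tested genes. In those shortest genes the median log2 difference was 0.48, beside 0.59 in SAUR genes, 18.7% had an unadjusted p under 0.05 on the higher side in edgeR and 5.0% on the lower side, and in 19.9% all NPI libraries lay above all DI libraries. With the trend on length removed, the median of SAUR genes was 0.27 and that of all genes 0.05. Then 7 of 30 SAUR genes had an unadjusted p under 0.05 on the higher side and 1 on the lower side in edgeR, beside 11.3% and 8.29% of all tested genes. SAUR12 kept a log2 difference of 3.01 (adjusted p = 0.0604 in edgeR), and that of Zm00001d032475 went from 1.58 to 1.20.

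**Figure D4:**
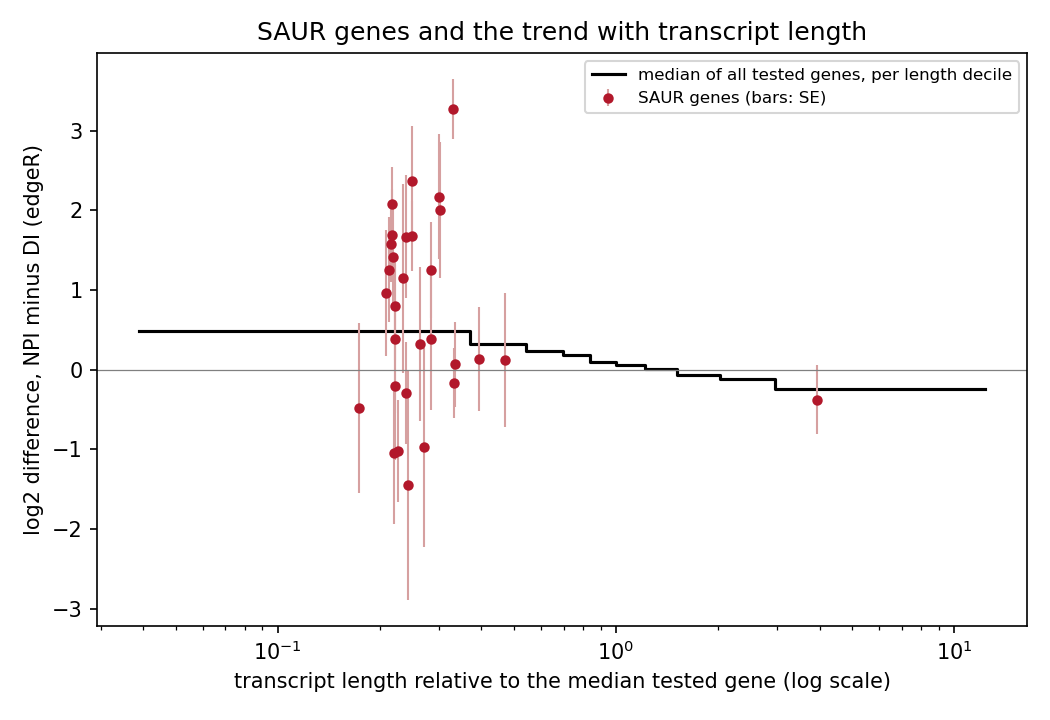
Fitted log2 difference of each tested SAUR gene with its standard error (points and bars) against transcript length relative to the median tested gene (log axis), with the median of all tested genes in each length decile (black line). The line descends from 0.48 in the shortest decile to -0.24 in the longest, and SAUR genes spread from -1.45 to 3.27.

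Other genes of auxin action gave the setting of the SAUR values, and none of the 187 tested genes on these lists passed an adjusted p of 0.05 in edgeR. Auxin synthesis genes were mostly higher in NPI: 9 of 11 tested genes had a positive log2 difference, beside 54.0% of all tested genes, with a median of 1.37. At an unadjusted p under 0.05, 6 of 11 were on the higher side, beside 12.3% of all tested genes. The count was 6 to 8 under the alternatives, beside 6.85% to 18.6% of all tested genes. Of the 6, tryptophan aminotransferase related2 (Zm00001d039691) and yucca9 (Zm00001d005439) reached the filter only through NPI, where they are high. Among the other positive genes, the same held for Zm00001d005602. Yucca5 (Zm00001d019527), of the monooxygenases that make auxin from indole-3-pyruvate, had 73.18, 19.34 and 33.16 FPKM in NPI and 1.81, 2.6 and 4.03 FPKM in DI (log2 difference 3.98, adjusted p = 0.0715 in edgeR). The gene vanishing tassel2 (Zm00001d008700), which encodes a tryptophan aminotransferase that supplies indole-3-pyruvate and is named after its values were seen, had 25.1 FPKM in NPI and 2.63 FPKM in DI on average. Zm00001d043651, an aminotransferase-related gene, lay the other way, with a log2 difference of -1.39 (adjusted p = 0.331 in edgeR). Among auxin carriers 9 of 10 tested genes had a positive log2 difference, beside the same 54.0%, with a median of 1.32. At that p 5 of 10 were on the higher side, beside 12.3%, and 4 to 8 under the alternatives, the 8 being without NPI-2, where 18.6% of all tested genes were higher. PIN-formed protein3 (Zm00001d052269), an efflux carrier, had 4.02, 7.51 and 7.26 FPKM in NPI and 3.03, 2.52 and 2.23 FPKM in DI, with no overlap (adjusted p = 0.118 in edgeR). Zm00001d046893, described as efflux carrier component 2, had 1.47, 12.99 and 1.31 FPKM in NPI and 30.01, 15.36 and 11.71 FPKM in DI (adjusted p = 0.265 in edgeR).

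Receptors and transcriptional regulators had medians closer to 0. The 4 genes of the TIR1/AFB auxin receptors had a median log2 difference of 0.38 and none had an unadjusted p under 0.05 in edgeR. Without NPI-3, 2 were higher, beside 11.5% of all tested genes. AUXIN SIGNALING F-BOX 3 (Zm00001d007357) had 29.7 ± 11.4 FPKM in NPI and 22.7 ± 3.01 FPKM in DI (SD, n = 3 each). Of 25 tested Aux/IAA repressor genes, 5 had an unadjusted p under 0.05 on the higher side and 1 on the lower side, beside 12.3% and 8.52% of all tested genes, with a median of 0.52. The higher count was 4 to 11 under the alternatives, the 11 being without NPI-2, where 18.6% of all tested genes were higher. The lower count was 0 to 2, beside 4.84% to 16.7% of all tested genes. Of the 5 higher genes, Zm00001d040541 reached the filter only through NPI, where it is high. Zm00001d040541, described as IAA20, had 3.19 ± 1.17 FPKM in NPI and 0.467 ± 0.191 FPKM in DI, and Aux/IAA-transcription factor4 (Zm00001d033976) had 44 ± 15.5 FPKM and 85.7 ± 20.3 FPKM (SD, n = 3 each; adjusted p = 0.0916 and 0.207 in edgeR). Of 29 tested auxin response factor genes, 3 were on each side at that p, near the shares of all tested genes, with a median of 0.08. Each count was 2 to 6 under the alternatives. Without NPI-2, 6 were higher and 5 lower, beside 18.6% and 16.7% of all tested genes. Without NPI-3, 5 were higher, beside 11.5%, and in limma on log2(FPKM + 1) 6 were lower, beside 10.1%. Auxin response factor 16 (Zm00001d051172) had a log2 difference of 1.65 and auxin response factor 7 (Zm00001d045026) one of -1.49 (adjusted p = 0.101 and 0.118 in edgeR). Of 9 GH3 genes, which conjugate auxin to amino acids, 5 were tested and none of these had an unadjusted p under 0.05 in edgeR. Without NPI-2 and with each wider filter 1 was higher, beside 9.12% to 18.6% of all tested genes. In DESeq2, in limma, with a replicate block and without NPI-3, 1 was lower, beside 8.73% to 10.3%. Zm00001d007395 and Zm00001d043350 had log2 differences of 1.46 and -1.88 (adjusted p = 0.357 and 0.310 in edgeR). Zm00001d043350 reached the filter only through DI, where it is high. The single tested gene described as an auxin-induced protein outside the SAUR name, Zm00001d033463, had a log2 difference of -1.70 (adjusted p = 0.313 in edgeR). It reached the filter only through DI, where it is high.

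The partners through which SAUR proteins act on growth in Arabidopsis lay on both sides of 0. None of 4 tested plasma membrane proton ATPase genes had an unadjusted p under 0.05 in edgeR. Without NPI-2, 1 was higher, beside 18.6% of all tested genes. Proton-exporting ATPase4 (Zm00001d026490) and membrane H(+)-ATPase3 (Zm00001d019062) had log2 differences of 0.53 and -0.37 (adjusted p = 0.503 and 0.464 in edgeR). Of 15 tested alpha expansin genes, 5 had positive log2 differences, beside 54.0% of all tested genes, and 10 had negative ones. The median was -0.59. At an unadjusted p under 0.05 in edgeR, 1 was higher and 2 lower, beside 12.3% and 8.52% of all tested genes. The 2 lower genes, Zm00001d032886 and Zm00001d016054, reached the filter only through DI, where they are high. Among the other negative genes, the same held for Zm00001d027718, Zm00001d016022 and Zm00001d040247. Without NPI-2, 5 of the 15 were lower and 3 higher, beside 16.7% and 18.6% of all tested genes. The lower count was 1 without NPI-1, 1 without NPI-3 and 0 without DI-1, beside 6.9%, 8.83% and 4.84%. With no FPKM filter 9 of 29 alpha expansin genes were lower, beside 7.03%. The gene alpha expansin2 (Zm00001d018031) had 39.65, 31.42 and 50.56 FPKM in NPI and 4.63, 2.6 and 3.98 FPKM in DI (adjusted p = 0.0608 in edgeR), and Expansin-A11 (Zm00001d032886) had 0.29, 0 and 0.07 FPKM in NPI and 6.12, 0.25 and 1.28 FPKM in DI, where DI-1 carried the mean (adjusted p = 0.203 in edgeR). The protein phosphatase 2C list takes in the whole class, since the table does not mark clade D. It had a median of 0.03 over 83 tested genes, with 7 higher and 4 lower at an unadjusted p under 0.05, which is below the shares of all tested genes. Of the 4 lower genes, Zm00001d007529 reached the filter only through DI. Under the alternatives 3 to 13 were higher and 3 to 7 lower. The 13 and 7 were without NPI-2, beside 18.6% and 16.7% of all tested genes. Without DI-2 and DI-1, 3 and 4 were higher, beside 6.85% of all tested genes in each. Zm00001d052018 and Zm00001d021390 had the smallest p on each side, with log2 differences of 1.36 and -1.54 (adjusted p = 0.0867 and 0.0716 in edgeR).

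**Figure D5:**
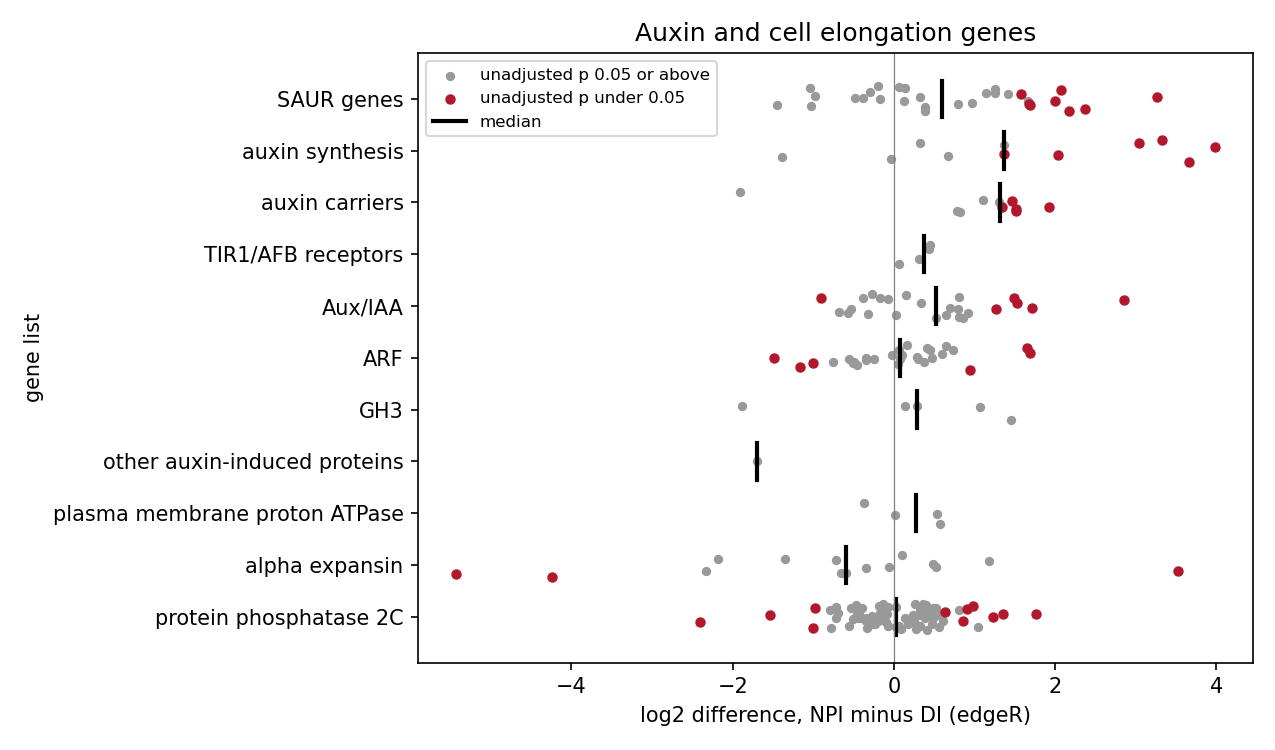
Fitted log2 differences of tested genes in the SAUR family and in 10 lists of auxin and cell elongation genes; points are genes, red at an unadjusted edgeR p under 0.05, and black bars are medians. Auxin synthesis and auxin carriers have medians of 1.37 and 1.32, SAUR genes 0.59 and alpha expansins -0.59.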

How the data were processed

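For 6 libraries and 45953 genes, the authors deposited estimated counts and FPKM. FastQC 0.10.1, HISAT2 2.0, StringTie 1.3.4 and edgeR (no version) are named in the submitters' processing notes. The genome build and strand setting are not given in the sources used here. All deposited estimated counts were whole, so rounding changed none. FPKM, the authors' level per length and depth, was used for printed levels and for the filter.

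EdgeR 4.0.16 (R 4.3.3) fitted the quasi-likelihood test, two-sided, with TMM factors and Benjamini-Hochberg adjustment over 21902 genes with a mean of at least 1 FPKM. The standard error is the log2 difference over the root of F. With 3 libraries against 3, an exact permutation test cannot go below p = 0.1, so none is given for single genes. The script was tested on simulated data.

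The members and gene lists were chosen with earlier results of these data known. The rule for named genes took SAUR12, the 10 higher and 6 lower SAUR genes of smallest p, the 6 of highest level, those in runs, those next to the filter, and the gene of smallest p on each side of each list. Alternatives covered normalization, filters, DESeq2 1.42.0, limma 3.58.1 on log2(FPKM + 1) and on log2(FPKM + 0.1), a replicate block, transcript length and each library left out. The newer quasi-likelihood estimate and adjusted p of 0.1 and 0.2 were chosen after seeing the data. Total counts were 57792439 to 71957443 per library, and 26 of the 30 tested SAUR genes had at least 100 counts in some library. No member matched the reference gene table by identifier, so no sequence is shown. Figures used matplotlib 3.10.9.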

Additional observations from a re-analysis of the deposited data

How the results depend on the processing

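The number of SAUR genes past an adjusted p of 0.05, 0 in the main analysis, was 1 with no FPKM filter, 1 with limma on log2(FPKM + 1) and 1 on log2(FPKM + 0.1), 1 with the newer quasi-likelihood estimate, 6 with DESeq2, and 0 to 5 with a library left out, the 5 being without NPI-2. At adjusted p of 0.1 and 0.2 it was 1 and 7. The count of SAUR genes higher at an unadjusted p under 0.05 was 8 in the main analysis, beside 12.3% of all tested genes. With a library left out it was 5 to 9. The 5 were without DI-2, beside 6.85% of all tested genes, and the 9 without NPI-2, beside 18.6%. The count lower was 0 in the main analysis, beside 8.52%. It was 1 with no FPKM filter, beside 7.03%, and 1 with the length trend removed, beside 8.29%. With a library left out it was 0 to 2. Without NPI-2 it was 1, beside 16.7%, and without NPI-3 it was 2, beside 8.83%. The median log2 difference, 0.59, was 0.35 in limma on log2(FPKM + 1), 0.27 with the length trend removed and 0.65 to 1.06 with a library left out, the highest being without DI-3.

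SAUR12 was past the threshold with no FPKM filter (log2 difference 3.26), with DESeq2 (3.26), with limma (2.91 and, at the lower pseudocount, 3.12), with the newer estimate (3.27), without NPI-2 (3.42) and at adjusted p of 0.1 and 0.2 (3.27). With a library left out it ran from 2.88 to 3.44. The number of all genes past the threshold, 3, was 16 with upper-quartile factors, 15 with library totals only, 18 with no FPKM filter, 2491 with DESeq2, 138 and 129 with limma at the higher and lower pseudocount, 26 with the newer estimate, 623 and 3342 at adjusted p of 0.1 and 0.2, and 0 to 2593 with a library left out.

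Correlations of deviations from the group means were -0.236, 0.169 and 0.162 for same-numbered libraries and -0.356 to 0.268 for other pairs. With 3 libraries in each group, these values cannot show whether the replicate numbers pair the libraries. With the replicate block, 1 gene of all passed, no SAUR gene did, and SAUR12 had a log2 difference of 3.21 (adjusted p = 0.118).

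Of 39 other named genes, 6 changed sign under some alternative, none of them near the threshold. Zm00001d001961 (0.14) was -0.095 and -0.165 in limma at the higher and lower pseudocount, -0.092 with the replicate block, -0.173 with the length trend removed and -0.685 to 0.516 with a library left out. Zm00001d005802 (0.32) was -0.180 in limma at the lower pseudocount, -0.110 with the block and -0.355 to 0.909 with a library left out. Zm00001d032091 (-0.20) was 0.042 and 0.091 in limma, 0.091 with the block and -0.921 to 1.337 with a library left out. Zm00001d032094 (0.39) was -0.001 with the length trend removed and -0.130 to 1.397 with a library left out. Left-out libraries gave -0.621 to 0.108 for Zm00001d001964 (-0.29) and -1.309 to 0.090 for Zm00001d049659 (-0.48). The causes were not tested.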
